A study of Mus musculus with 4 samples.

Results

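The genes described here are 43 genes of DNA damage sensing and repair, out of 20640 genes measured. They were chosen by name, from known function, with earlier results of these data known. They were followed by repair pathway in cells of irradiated and mock-treated mouse lung. The mice were female C57BL/6 animals of 8 weeks, and all of them carried HKP1 tumours, after 150000 HKP1 cells had been injected into the tail vein. HKP1 cells come from a lung adenocarcinoma of the mouse and have no functional Trp53, which encodes the tumour suppressor p53, whereas the host cells around them carry the gene. The animals were assigned to treatments after bioluminescence imaging on day 6 and had 0 Gy (mock) or 4 Gy on each of 3 days in a row, from day 10 to day 12. Each treatment had 4 mice, whose cells the files do not tell apart, and the harvest followed the last dose by 24 to 48 h. A sort of live cells by CD45, the surface protein of leukocytes, gave a negative fraction (vessel wall, epithelium, stroma and tumour) and a positive one (leukocytes) for 10x Genomics 3′ sequencing, which gave 1 library for each dose and sort.

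A cell exposed to ionising radiation gets breaks in 1 or both strands of its DNA, oxidised bases and crosslinks. Breaks through both strands are bound by the MRN complex, which activates the kinase ATM. ATM marks the chromatin around the break by phosphorylating the histone variant H2AX, and MDC1, RNF8, RNF168 and 53BP1 gather there. Repair then goes either through end joining, which works in resting cells, or through homologous recombination, which uses the sister chromatid of a dividing cell. Damaged bases and small breaks go to base excision repair, bulky lesions to nucleotide excision repair, and lesions still present when DNA is copied can be passed by translesion polymerases. Much of this response acts on proteins that are already there, through phosphorylation and ubiquitin, whereas p53 acts through transcription. Among the repair genes, Polk, Xpc and Rrm2b have been reported as p53 targets.

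Unique molecular identifiers (UMIs, 1 per captured RNA molecule) numbered 14885765 without and 24045901 with CD45 at 0 Gy, and 12448164 without and 36423571 with CD45 at 4 Gy. The 4 libraries held 25315 barcodes in all, of which 69 sequences occurred in more than 1 library. Cells were taken into classes by marker genes: a cell needed at least 3 detected markers of a list, and a detected share of that list at least 0.1 above that of any other of 23 lists. Each name carries "-like", as markers alone gave it. There were 5449 endothelial-like cells at 0 Gy and 4002 at 4 Gy, which had a median of 10 of 12 endothelial markers, while Ptprc, which encodes CD45, stood at 1.11 and 1.66 CPM in them (UMIs scaled to a total of 1000000). Tumour-like epithelial cells numbered 96 and 33, and they had a median of 4 of 8 markers, while Ptprc had 0 UMIs at both doses. Of these markers the keratins Krt19 (92.7% and 97.0% of cells), Krt8 (90.6% and 93.9%) and Krt18 (90.6% and 93.9%) were detected in most cells, and Cdkn2a (67.7% and 69.7%), Lgals4 (60.4% and 48.5%) and Krt7 (24.0% and 39.4%) in fewer. Sfn (4.17% and 6.06%) and Cldn4 (1.04% and 3.03%) were rare, and so was Epcam, a general epithelial surface marker outside the list (4.17% and 9.09%). In 37 and 10 of these tumour-like cells the markers lay near the limit of the gate (3 markers, or a lead under 0.2). The leukocytes compared were 2338 and 3509 B-like, 1192 and 2234 T-like, 433 and 916 NK-like, 317 and 905 neutrophil-like, 186 and 362 classical-monocyte-like, 171 and 212 nonclassical-monocyte-like and 76 and 169 interstitial-macrophage-like cells.

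UMIs were summed over the cells of a class in a library and are given as CPM of that class. Each ratio is the CPM at 4 Gy over that at 0 Gy, with its exact 95% interval in brackets. With 1 library per dose and sort there was no replicate and no test, and the intervals cover counting error only, not the spread between mice. A gene was measured in a class if it had at least 10 UMIs over both doses. It was counted as higher or lower if it differed at least 1.5-fold after 5 CPM were added to both levels, an addition that shrinks the ratios of rare transcripts. Because 3′ tags are not scaled by gene length, levels are compared between doses and classes for 1 gene, not between genes.

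Transcripts of p53 targets, a list chosen with earlier results of these data known, differed widely between the libraries. In endothelial-like cells Cdkn1a, the gene for the inhibitor p21 that arrests the cell cycle, stood at 447 CPM at 0 Gy and 2589 CPM at 4 Gy, ratio 5.79 [5.62 to 5.96]. Mdm2, the ubiquitin ligase that limits p53, stood at 54.1 and 154 CPM (2.85 [2.60 to 3.13]), and the apoptosis effector Bax at 230.5 and 885 CPM (3.84 [3.68 to 4.01]). Of 16 p53 targets listed, 14 were higher in these cells, with a median log2 ratio of 1.83.

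Repair genes of endothelial-like cells differed far less. Of the 43 genes, 41 were measured, 2 were higher at 4 Gy (Polk and Mgmt) and 0 were lower, where 1.67% of all measured genes were higher and 0.878% lower. The median log2 ratio of the 41 genes was 0.069, against 0.019 over all measured genes. The summed level of all 43 was 769.8 CPM at 0 Gy and 867 CPM at 4 Gy, ratio 1.13 [1.09 to 1.16]. Polk alone, at 30.1 and 74.8 CPM, made up a large part of that difference.

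Polk encodes DNA polymerase kappa, a translesion enzyme that copies past bulky lesions in the template. It lies on chromosome 13 (96480690 to 96542579, minus strand, GRCm38). Its UMIs numbered 352 at 0 Gy and 766 at 4 Gy, levels of 30.1 and 74.8 CPM, ratio 2.49 [2.19 to 2.83]. Polk thereby made up most of the difference of its pathway: the summed level of the translesion genes Polk, Polh and Rev3l was 74.5 and 122 CPM, ratio 1.63 [1.5 to 1.78]. Polh, the polymerase that copies past ultraviolet-induced thymine dimers, stood at 14.2 and 12.5 CPM (0.881 [0.694 to 1.12]). Rev3l, the catalytic subunit of polymerase zeta, stood at 30.3 and 34.4 CPM (1.14 [0.978 to 1.32]). The intervals of both included 1.

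Mgmt encodes the methyltransferase that takes alkyl groups directly off guanine and is used up by the reaction. It lies on chromosome 7 (136894614 to 137130266, plus strand, GRCm38). Its UMIs numbered 72 and 164, levels of 6.15 and 16.0 CPM, ratio 2.60 [1.96 to 3.48]. The next genes in size stayed short of the limit. Lig4, the ligase that closes the break in non-homologous end joining, stood at 3.25 and 6.84 CPM, from 38 and 70 UMIs, ratio 2.10 [1.40 to 3.21]. On the scale with 5 CPM added its log2 ratio was 0.52. Ercc5, the XPG nuclease that cuts on the 3′ side of a lesion in nucleotide excision repair, stood at 25.0 and 35.5 CPM, ratio 1.42 [1.21 to 1.66].

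The bases just before the start of Polk, Mgmt and Ercc5 are shown beside those of Cdkn1a, so that genes with higher levels at 4 Gy can be read against a p53 target that was higher in the same cells. Each line gives 150 bases, read 5′ to 3′ on the strand of the gene, from RefSeq on GRCm38.p6, and capitals mark matches to the p53 half-site. Where a gene had several starts, only the most upstream was used, here and in the windows below, so other starts were not searched.
Polk, chr13:96542580-96542729, minus strand: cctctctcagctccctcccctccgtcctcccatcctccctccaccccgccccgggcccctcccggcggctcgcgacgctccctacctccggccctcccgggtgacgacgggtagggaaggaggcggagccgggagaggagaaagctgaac
Mgmt, chr7:136894436-136894585, plus strand: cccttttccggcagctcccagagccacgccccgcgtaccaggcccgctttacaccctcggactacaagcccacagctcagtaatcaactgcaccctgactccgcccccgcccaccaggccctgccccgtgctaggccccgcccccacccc
Ercc5, chr1:44147594-44147743, plus strand: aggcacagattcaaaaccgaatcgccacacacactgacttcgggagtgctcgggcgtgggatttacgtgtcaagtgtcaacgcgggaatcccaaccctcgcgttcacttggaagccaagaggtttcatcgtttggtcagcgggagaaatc
Cdkn1a, chr17:29090829-29090978, plus strand: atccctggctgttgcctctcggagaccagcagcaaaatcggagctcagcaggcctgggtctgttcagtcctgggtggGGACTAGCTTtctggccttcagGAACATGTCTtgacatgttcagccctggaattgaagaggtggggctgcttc
The Polk and Mgmt stretches are rich in G and C, 73.3% and 70.0% of bases, against 54.0% for Ercc5 and 56.7% for Cdkn1a. Windows of 300 bases (250 before and 50 after the start) were at hand for 34 of the 43 genes. Those of Xpc, Ddb2, Rev3l, Rrm2b, Fancd2, Prkdc, H2afx, Rad50 and Nbn were not used here. Of the repair genes named above as reported p53 targets, Polk was thus covered but Xpc and Rrm2b were not. On either strand, the p53 half-site matched 0 of the 34 windows and 8.34% of all 27025 windows of that length in the table. TTTNNCGC, a core of sites of the cell cycle factors E2F, matched 6 of the 34, those of Brca2, Chek2, Ercc5, Mdc1, Msh6 and Xrcc6, and 5.29% of all. The window of Bax, also a p53 target that was higher in these cells, held 1 half-site match, outside its 150 bases before the start. That of Cdkn1a held 2 and that of Lig4 0. A match is a run of letters and not a binding site, and a site farther away would not be seen in these windows.

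**Figure D1:**
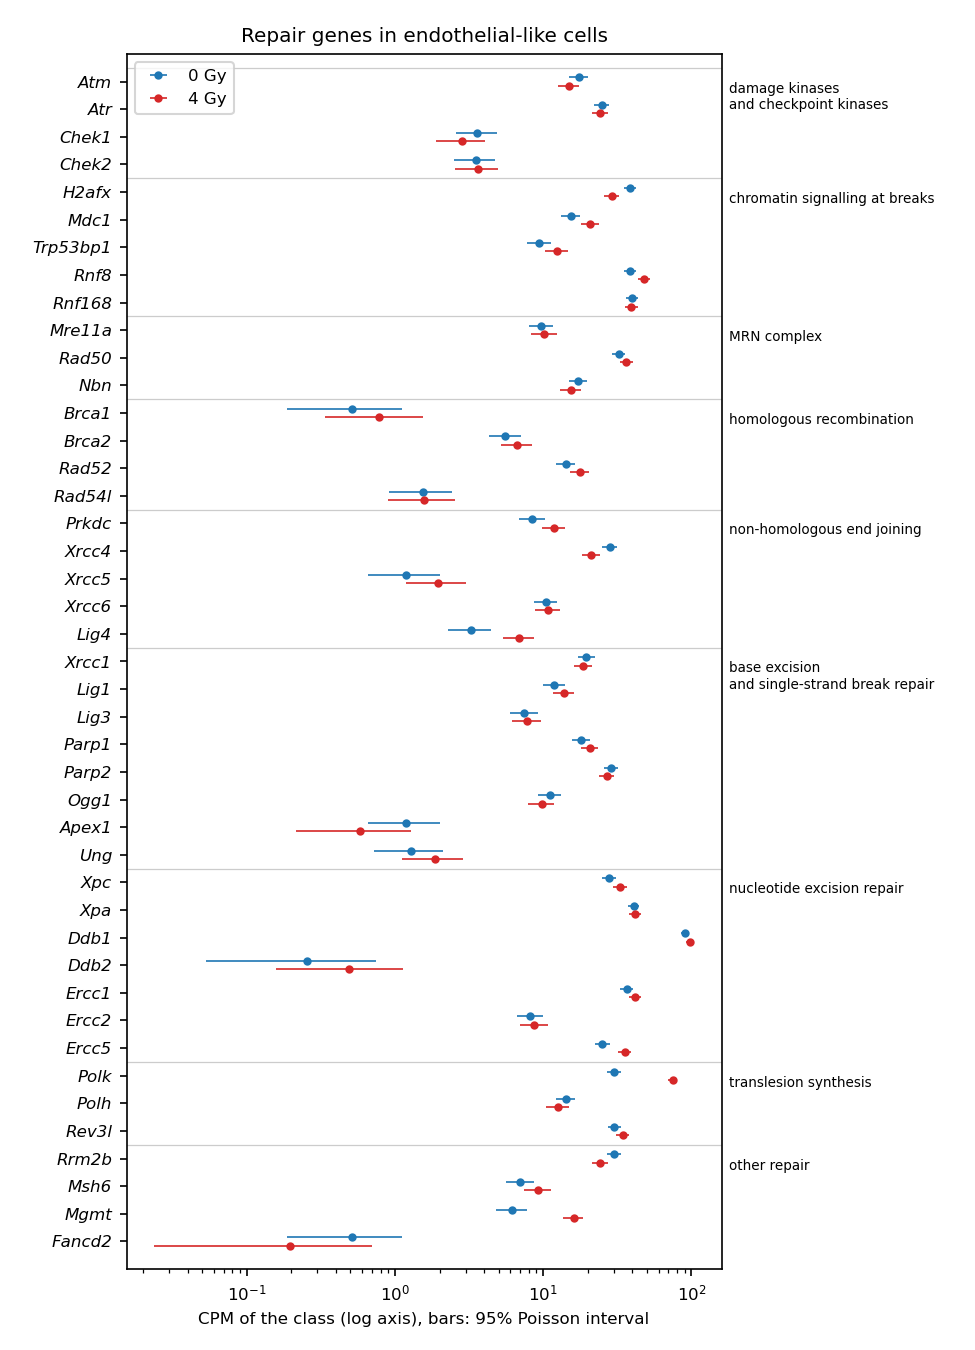
Level of each of the 43 genes in endothelial-like cells, in CPM of the class on a log axis, ordered by pathway, with 0 Gy in blue and 4 Gy in red and bars for the exact 95% Poisson interval of the 1 library per dose. Of the genes with a ratio above 1, Mgmt (6.15 and 16.0 CPM), Polk (30.1 and 74.8 CPM) and Lig4 (3.25 and 6.84 CPM) have the widest gaps. Lig4 stayed short of the 1.5-fold limit. The gaps of Apex1 and Fancd2 the other way rest on at most 14 UMIs, with overlapping bars.

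The remaining pathways of endothelial-like cells are described in the order of the response. Of the kinases, Atr, which senses single-stranded DNA at stalled forks, stood at 24.9 and 24.3 CPM (0.978 [0.822 to 1.16]), and Atm at 17.4 and 14.9 CPM (0.861 [0.694 to 1.07]). Their downstream checkpoint kinases Chek1 and Chek2 lay between 2.83 and 3.61 CPM at both doses. The summed level of the 4 kinases was 49.3 and 45.7 CPM, with an interval that included 1 (0.927 [0.819 to 1.05]).

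The genes that mark chromatin at a break went different ways. H2afx, the gene for H2AX (chromosome 9, 44334694 to 44336077, plus strand), stood at 38.5 and 28.9 CPM, from 450 and 296 UMIs, ratio 0.752 [0.647 to 0.872]. Mdc1, the adaptor that binds phosphorylated H2AX, stood at 15.3 and 20.7 CPM (1.35 [1.10 to 1.66]), and Trp53bp1, which encodes 53BP1, at 9.40 and 12.3 CPM (1.31 [1.005 to 1.71]). The ubiquitin ligase Rnf8 stood at 38.6 and 47.9 CPM (1.24 [1.09 to 1.41]) and Rnf168, which extends the ubiquitin mark of RNF8, at 39.9 and 39.3 CPM (0.984 [0.859 to 1.13]). A same-strand coding model overlaps the 3′ end of Rnf8, so its reads may be shared. With cells thinned to 1000 UMIs, so that deep cells do not weigh more, the ratio of H2afx was 0.977. Thinning leaves out shallower cells, and 5024 and 3827 endothelial-like cells remained.

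Of the MRN complex, the ATPase Rad50 stood at 32.4 and 36.4 CPM (1.12 [0.972 to 1.3]), the nuclease Mre11a at 9.74 and 10.2 CPM and Nbn, the subunit that recruits ATM, at 17.2 and 15.3 CPM, all with intervals that included 1. Homologous recombination genes gave few UMIs in these cells, of which 0.349% and 0.250% passed the gate for cycling cells (at least 2 of 12 cycling markers). Rad52, which anneals single strands, had the most UMIs, at 14.2 and 17.6 CPM (1.24 [0.998 to 1.54]), and Brca2, a tumour suppressor needed for recombination, stood at 5.55 and 6.64 CPM. Rad54l, the remodeller that helps strand invasion, had 18 and 16 UMIs, and Brca1, which promotes end resection, 6 and 8. The 4 genes summed to 21.8 and 26.6 CPM, ratio 1.22 [1.02 to 1.45].

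Non-homologous end joining as a whole stood at 51.4 and 52.4 CPM (1.02 [0.905 to 1.15]), but its members were split. Xrcc4, the scaffold that LIG4 needs, stood at 28.0 and 21 CPM, ratio 0.749 [0.628 to 0.892], in the opposite direction to Lig4. Prkdc, the catalytic subunit of the DNA-dependent kinase, stood at 8.46 and 11.8 CPM (1.40 [1.06 to 1.84]). The Ku subunits Xrcc6 (10.4 and 10.7 CPM) and Xrcc5 (14 and 20 UMIs) had intervals that included 1.

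Base excision and single-strand break repair differed least, at 99.0 and 99.9 CPM for its 8 genes (1.01 [0.927 to 1.10]). Parp2, which detects single-strand breaks together with PARP1, had the most UMIs, at 28.5 and 26.9 CPM (0.941 [0.799 to 1.11]), and Parp1 stood at 18.0 and 20.6 CPM (1.14 [0.940 to 1.39]). The scaffold Xrcc1, the ligases Lig1 and Lig3, the 8-oxoguanine glycosylase Ogg1, the uracil glycosylase Ung and the endonuclease Apex1 also had intervals that included 1. Apex1 had 14 and 6 UMIs. It is overlapped at its 3′ end by Pip4p1 on the other strand, and 12 of the 43 genes have a coding gene over their last 500 bases. These are Trp53bp1, Rnf8, Rad54l, Lig3, Ogg1, Apex1, Xpa, Ddb2, Ercc1, Ercc2, Msh6 and Fancd2, with the overlap on the other strand except for Rnf8. The sources used here do not give whether counting used strand.

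Nucleotide excision repair summed to 229 and 259.9 CPM over its 7 genes, ratio 1.13 [1.08 to 1.20]. Ddb1, the adaptor of the ubiquitin ligase that finds ultraviolet damage, stood at 90.5 and 98.5 CPM (1.09 [0.998 to 1.19]), and Xpc, the sensor of distorted helices, at 27.9 and 33.1 CPM (1.19 [1.01 to 1.38]). Xpa, which verifies the lesion, Ercc1, the partner of the XPF nuclease, and Ercc2, the XPD helicase, had ratios between 1.03 and 1.14 with intervals that included 1. Ddb2, with 3 and 5 UMIs, was not measured. Of the genes left, Rrm2b, a ribonucleotide reductase subunit that supplies nucleotides for repair outside S phase, stood at 30 and 24.1 CPM (0.804 [0.681 to 0.949]), in the opposite direction to the p53 targets. Msh6, a mismatch sensor, stood at 7.01 and 9.18 CPM, and Fancd2 of the crosslink pathway had 6 and 2 UMIs and was not measured.

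In all, 9 of the 41 measured genes had an interval wholly above 1 in endothelial-like cells (Mdc1, Trp53bp1, Rnf8, Prkdc, Lig4, Xpc, Ercc5, Polk and Mgmt) and 3 wholly below it (H2afx, Xrcc4 and Rrm2b), where the interval lay above 1 for 17.4% and below 1 for 13.9% of all measured genes. Of 80 further repair genes, 74 were measured, 2 were higher and 0 lower, with a median log2 ratio of -0.015. The 2 were Rnf169, which binds the RNF168 mark and competes with 53BP1, at 19.7 and 59.7 CPM (3.04 [2.60 to 3.55]), and Wee1, the kinase that holds cells before mitosis, at 4.27 and 8.99 CPM (2.10 [1.47 to 3.03]).

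Lung capillaries hold aerocytes, thin cells specialised for gas exchange, next to general capillary cells. The ratio of Polk was close in aerocyte-like cells and in the other endothelial-like cells, a rest that was not gated for general capillary cells. Its level in aerocyte-like cells (502 and 370 cells with at least 3 of 6 aerocyte markers) was 36.0 and 88.2 CPM (2.45 [1.81 to 3.34]), and in the other endothelial-like cells (4947 and 3632) 29.0 and 72.2 CPM (2.49 [2.16 to 2.87]). In aerocyte-like cells 4 of 34 measured genes were higher and 0 lower, where 8.33% of all measured genes were higher and 2.84% lower. They were Polk, Parp1 (6.86 and 18.2 CPM, 12 and 30 UMIs, 2.66 [1.32 to 5.70]), Msh6 (4 and 13 UMIs, 3.46 [1.07 to 14.6]) and Ercc5 (23.4 and 37.7 CPM, 1.61 [1.07 to 2.45]). The count of 4 is thus near that background. In the other endothelial-like cells 3 of 41 were higher, Polk, Mgmt (6.23 and 17.0 CPM, 2.73 [2.01 to 3.73]) and Lig4 (3.21 and 7.45 CPM, 2.32 [1.49 to 3.66]), and 0 lower, where 1.81% of all measured genes were higher and 1.15% lower. Mgmt in aerocyte-like cells rested on 10 and 18 UMIs (1.91 [0.838 to 4.64]), and Lig4 on 6 and 6. Whether the aerocyte-like and other cells differ in their response was not tested.
Among the further repair genes of aerocyte-like cells, Rnf169 (2.36 [1.70 to 3.32]) and Uvssa, of transcription-coupled repair (1.62 [1.14 to 2.33]), were among the higher ones, and the mismatch gene Mlh3 was lower (0.496 [0.281 to 0.851]). In the other cells Rnf169 (3.23 [2.71 to 3.86]) and Wee1 (2.21 [1.53 to 3.25]) were higher.

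**Figure D2:**
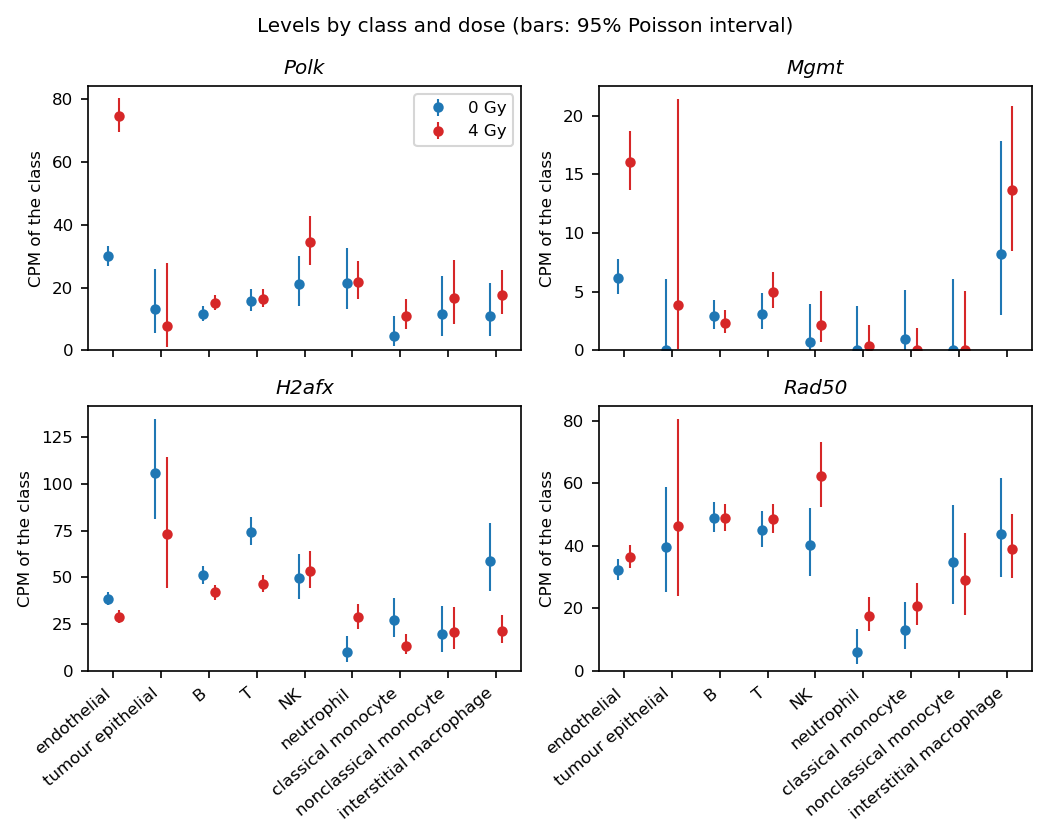
Levels of Polk, Mgmt, H2afx and Rad50 in 9 cell classes, in CPM of the class, with 0 Gy in blue, 4 Gy in red and bars for the exact 95% Poisson interval of the 1 library per dose. For Polk the endothelial-like level at 4 Gy (74.8 CPM) lies above all others, whereas that at 0 Gy (30.1 CPM) lies within the range of NK-like cells (21.2 and 34.4 CPM), and H2afx is lower at 4 Gy in T-like cells (74.5 and 46.5 CPM).

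Tumour-like epithelial cells gave little depth, 605879 and 259680 UMIs, and 33 cells at 4 Gy is under the 50 cells required of the other classes. They are described because this class is the one that can hold HKP1 cells, which have no functional p53. Trp53 had 5 UMIs at each dose, although 3′ tags do not show which exons were deleted. Here the p53 targets did not stand apart, with 1 higher and 1 lower of 10 measured, a median log2 ratio of -0.28 and Cdkn1a at 18.2 and 23.1 CPM (1.27 [0.386 to 3.75]). Of the repair genes 19 were measured, 1 was higher and 6 were lower, where 16.7% of all measured genes were higher and 17.0% lower. The median log2 ratio was -0.48, and the summed level was 781 and 685.5 CPM, ratio 0.878 [0.735 to 1.04]. Without the 5% deepest barcodes of each library the summed ratio was 0.480 and the median -2.58, over the 2 genes that were then still measured.

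Chek2, which relays the ATM signal, was the one of 19 genes whose interval excluded 1. Of all measured genes, 7.85% had an interval above 1 and 6.33% one below it. Chek2 had 15 UMIs (24.8 CPM) at 0 Gy and 0 at 4 Gy, ratio 0 [0 to 0.65]. With a floor of 3 UMIs put in place of 0 at 4 Gy, the ratio would be 0.467. Rnf8 and Parp1 both stood at 38.0 and 15.4 CPM (0.406 [0.102 to 1.19]), from 23 and 4 UMIs. Mre11a had 13 and 1 UMIs, and Xrcc6 and Xrcc1 had 13 and 3 each. Rnf168, the gene counted as higher, had 6 and 5 UMIs (1.94 [0.469 to 7.65]). Polk had 8 and 2 UMIs (0.583 [0.0603 to 2.92]), an interval that holds the endothelial ratio of 2.49, so these counts do not exclude a ratio of that size. Ddb1, with the most UMIs of the repair genes here, stood at 165.0 and 154 CPM (0.933 [0.630 to 1.36]), and H2afx at 106 and 73.2 CPM (0.693 [0.392 to 1.17]). Cycling cells made up 40.6% and 57.6% of this class, or 21.3% and 21.4% of the 75 and 28 cells that had at least 1000 UMIs and were thinned to that depth, and the part of this share in the values was not tested. Without cycling cells H2afx had 8 and 5 UMIs.
Further repair genes of this class were higher in 4 and lower in 6 of 34 measured. The largest were the end resection factor Rbbp8 (26.4 and 53.9 CPM, 2.04 [0.923 to 4.46]), the helicase Ercc3 (14.9 and 30.8 CPM, 2.07 [0.696 to 6.06]) and Mad2l2, a polymerase zeta subunit (28.1 and 53.9 CPM, 1.92 [0.877 to 4.14]). On the other side stood the glycosylase Nthl1 (20 and 2 UMIs, 0.233 [0.0264 to 0.96]) and the deubiquitinase Usp1 (11 and 2 UMIs). Of the genes named here, Nthl1 alone had an interval that excluded 1.

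B-like cells carried the most UMIs of any leukocyte class, 8266919 and 10717795, and all 43 genes were measured. None was past the limit: 0 were higher and 0 lower, where 1.58% of all measured genes were higher and 0.284% lower. The median log2 ratio was 0.028, against 0.037 over all measured genes, and the summed level was 816 and 871 CPM (1.07 [1.03 to 1.10]). Of the 43 intervals 8 lay above 1 and 1 below it, where 15.3% of all measured genes had an interval above 1 and 7.75% one below it. Parp1 was far higher in B-like cells than in any other class, at 126 and 138 CPM (1.09 [1.01 to 1.18]), against 18.0 and 20.6 CPM in endothelial-like cells. Atm stood at 22.4 and 30 CPM (1.34 [1.12 to 1.62]), Ddb1 at 42.5 and 56.3 CPM (1.32 [1.16 to 1.52]) and Brca2 at 13.9 and 19.5 CPM (1.40 [1.11 to 1.78]). Rad54l had 10 and 37 UMIs (2.85 [1.39 to 6.43]), and Chek2, Ercc2 and Msh6 also had intervals above 1, at ratios of 1.5, 1.61 and 1.45. H2afx stood at 51.2 and 41.9 CPM (0.819 [0.715 to 0.937]). Polk stood at 11.7 and 15 CPM (1.28 [0.989 to 1.66]) and Mgmt at 2.90 and 2.33 CPM. Of 16 p53 targets 14 were measured and 2 were higher, and Cdkn1a stood at 19.2 and 33.7 CPM (1.75 [1.45 to 2.12]). Among 79 further repair genes measured, 0 were higher and 0 lower.

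T-like cells had all 43 genes measured as well, with 0 higher and 1 lower, where 1.63% of all measured genes were higher and 0.742% lower. The median log2 ratio was 0.049, against -0.0001 over all measured genes, and the sum was 759.8 and 772 CPM (1.02 [0.977 to 1.06]). The 1 lower gene was H2afx, at 74.5 CPM (411 UMIs) and 46.5 CPM (403 UMIs), ratio 0.624 [0.542 to 0.718]. Through H2afx the group of chromatin signals was lower too, at 153 and 123 CPM (0.8 [0.731 to 0.877]). Prkdc stood at 12.3 and 18.0 CPM (1.46 [1.09 to 1.97]), Mre11a at 14.9 and 19.8 CPM (1.34 [1.02 to 1.76]) and Lig3, the ligase of single-strand break repair, at 5.80 and 8.88 CPM (1.53 [1.002 to 2.39]), and Ddb1 at 53.8 and 62.9 CPM (1.17 [1.01 to 1.35]). Chek2 lay the other way, at 5.98 and 3.46 CPM (0.578 [0.341 to 0.978]). Thus 4 intervals lay above 1 and 2, with that of H2afx, below it, where the shares of all measured genes were 9.91% and 10.2%. Polk stood at 15.8 and 16.5 CPM (1.05 [0.796 to 1.38]). The glycosylase Neil3 was lower among 79 further repair genes measured, with 28 and 14 UMIs (0.318 [0.155 to 0.625]), and 0 were higher.

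H2afx transcripts are more abundant in cells that copy their DNA, and cells that passed the cycling gate made up 3.94% of T-like cells at 0 Gy (47 cells) and 3.22% at 4 Gy (72 cells). Among the 1180 and 2205 cells thinned to 1000 UMIs the shares were 2.29% and 1.13%. The ratio of H2afx was below 1 in both fractions, though cycling cells with fewer than 2 detected markers stay among the other cells. The part of cycling cells in the difference was not tested. In the cycling cells H2afx stood at 393 and 236.5 CPM, ratio 0.602 [0.491 to 0.738], and in the other T-like cells at 40.7 and 27.7 CPM, ratio 0.682 [0.561 to 0.829]. In the latter the log2 ratio with 5 CPM added was -0.48, short of the limit. Over all T-like cells H2afx also fell short of it without the 5% deepest barcodes (0.703) and as a mean over cells (0.690).

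Within each library the cycling T-like cells were also set against the other T-like cells, a comparison of cells within 1 library and without replicate. Summed over the 43 genes, the level was 695 CPM in other and 1371 CPM in cycling cells at 0 Gy (1.97 [1.82 to 2.14]), and 724 and 1250.0 CPM at 4 Gy (1.73 [1.61 to 1.85]). H2afx alone made up a large part of these summed differences. The median log2 ratio of the measured genes was 0.30 at 0 Gy and 0.27 at 4 Gy, against 0.047 and 0.031 over all measured genes. At 0 Gy 12 of 40 measured genes were higher in cycling cells and 4 lower, where 18.8% of all measured genes were higher and 14.4% lower. At 4 Gy 10 of 41 were higher and 1 lower, where the background was 16.1% and 10.4%. Cycling cells were deeper, with 529612 UMIs in 47 cells at 0 Gy against 4987284 in 1145, and detecting 2 cycling markers is easier in a deep cell.

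H2afx and Lig1 stood farthest apart. H2afx was 9.65-fold [7.91 to 11.8] higher in cycling cells at 0 Gy and 8.52-fold [6.97 to 10.4] at 4 Gy. Lig1, the ligase that joins Okazaki fragments, was 9.57-fold [6.63 to 13.8] and 9.95-fold [7.48 to 13.2] higher. Chek1, Brca1 and Rad54l, all under 10 CPM in every class as a whole, stood at 22.7, 28.3 and 24.5 CPM in cycling cells at 0 Gy and at 18.0, 15.4 and 32.1 CPM at 4 Gy. Their levels in the other T-like cells lay between 0.507 and 2.21 CPM. Fancd2 had 4 UMIs in cycling and 0 in other cells at 0 Gy, and 7 and 1 at 4 Gy. The uracil glycosylase Ung was 2.77-fold [1.45 to 5.0] and 5.43-fold [3.70 to 7.90] higher. Of the other recombination genes Brca2 had ratios of 2.09 [1.02 to 3.96] and 1.80 [0.989 to 3.09], and Rad52 of 0.747 [0.235 to 1.84] and 0.826 [0.322 to 1.77]. Among the translesion genes Polk had ratios of 0.824 [0.321 to 1.78] and 1.19 [0.646 to 2.03], and Rev3l stood at 32.9 and 32.1 CPM at 0 Gy and at 40.5 and 19.3 CPM (0.475 [0.263 to 0.796]) at 4 Gy. Rrm2b, which serves cells outside S phase, stood at 18.4 CPM in other and 7.55 CPM in cycling cells at 0 Gy (0.409 [0.109 to 1.08]).

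**Figure D3:**
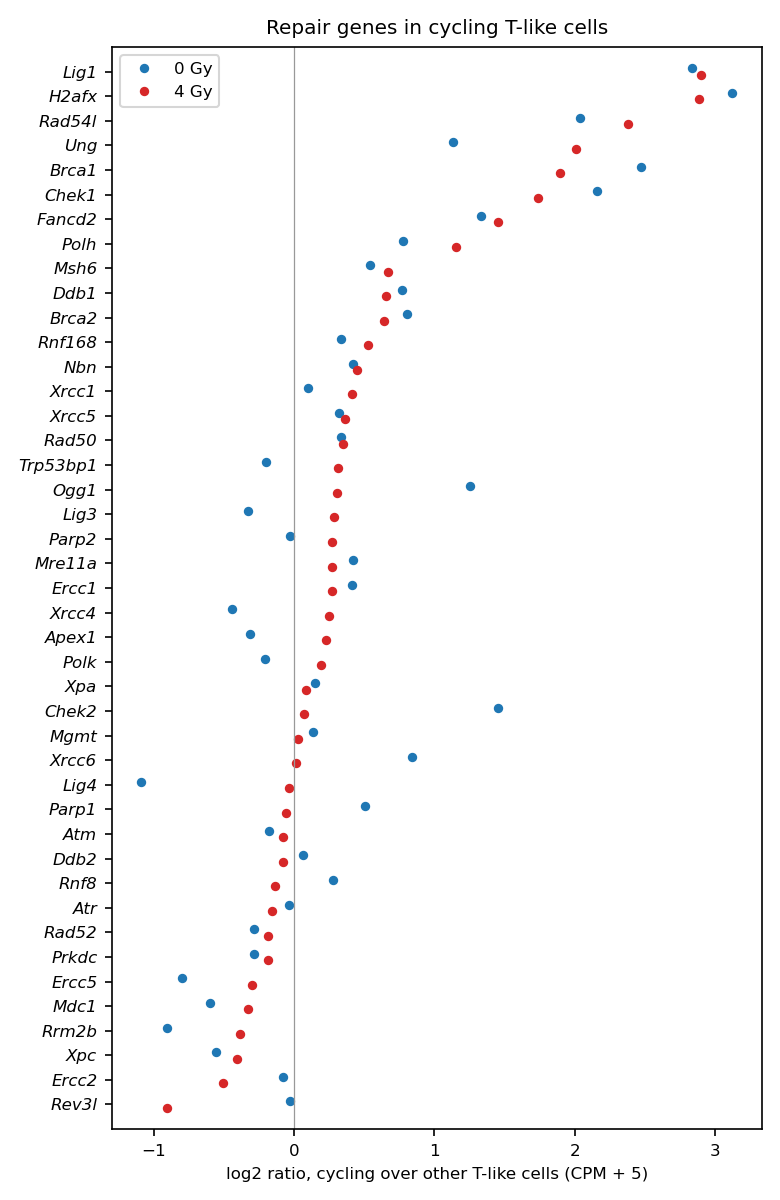
Log2 ratio of each of the 43 genes in cycling over other T-like cells, with 5 CPM added, at 0 Gy (blue) and 4 Gy (red), 1 library per dose. H2afx and Lig1 lie farthest to the right at both doses, and Rad54l, Brca1 and Chek1 follow in differing order, while Ung lies farther to the right at 4 Gy than at 0 Gy.

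In NK-like cells 2 of 38 measured genes were higher and 0 lower, where 7.60% of all measured genes were higher and 2.42% lower. The median log2 ratio was 0.12, against 0.064 over all measured genes, and the sum was 772 and 860.4 CPM, ratio 1.11 [1.03 to 1.20]. The 2 genes were Polk, at 21.2 and 34.4 CPM from 30 and 79 UMIs (1.63 [1.06 to 2.56]), and Trp53bp1, at 7.76 and 17.0 CPM from 11 and 39 UMIs (2.19 [1.10 to 4.74]). Rad50 stood just short of the limit at 40.2 and 62.3 CPM (1.55 [1.13 to 2.14]). With it the MRN complex summed to 62.1 and 88.4 CPM (1.42 [1.10 to 1.85]). With cells thinned to 1000 UMIs (421 and 893 cells) the ratio of Trp53bp1 was 1.06 and that of Polk 2.22. Cdkn1a stood at 11.3 and 49.7 CPM (4.40 [2.59 to 7.95]), and 4 of 12 measured p53 targets were higher. Further repair genes were higher in 5 and lower in 4 of 68 measured. They included Palb2, the partner of BRCA2 (2 and 14 UMIs, 4.32 [0.992 to 39.2]), the glycosylase Smug1 (2.13 [1.07 to 4.62]) and Rpa1, which coats single-stranded DNA (38.1 and 66.7 CPM, 1.75 [1.27 to 2.43]). The lowest were Wee1 (14.1 and 6.10 CPM, 0.432 [0.202 to 0.899]), Ube2t (0.463 [0.200 to 1.04]) and Timeless (0.463 [0.172 to 1.20]).

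**Figure D4:**
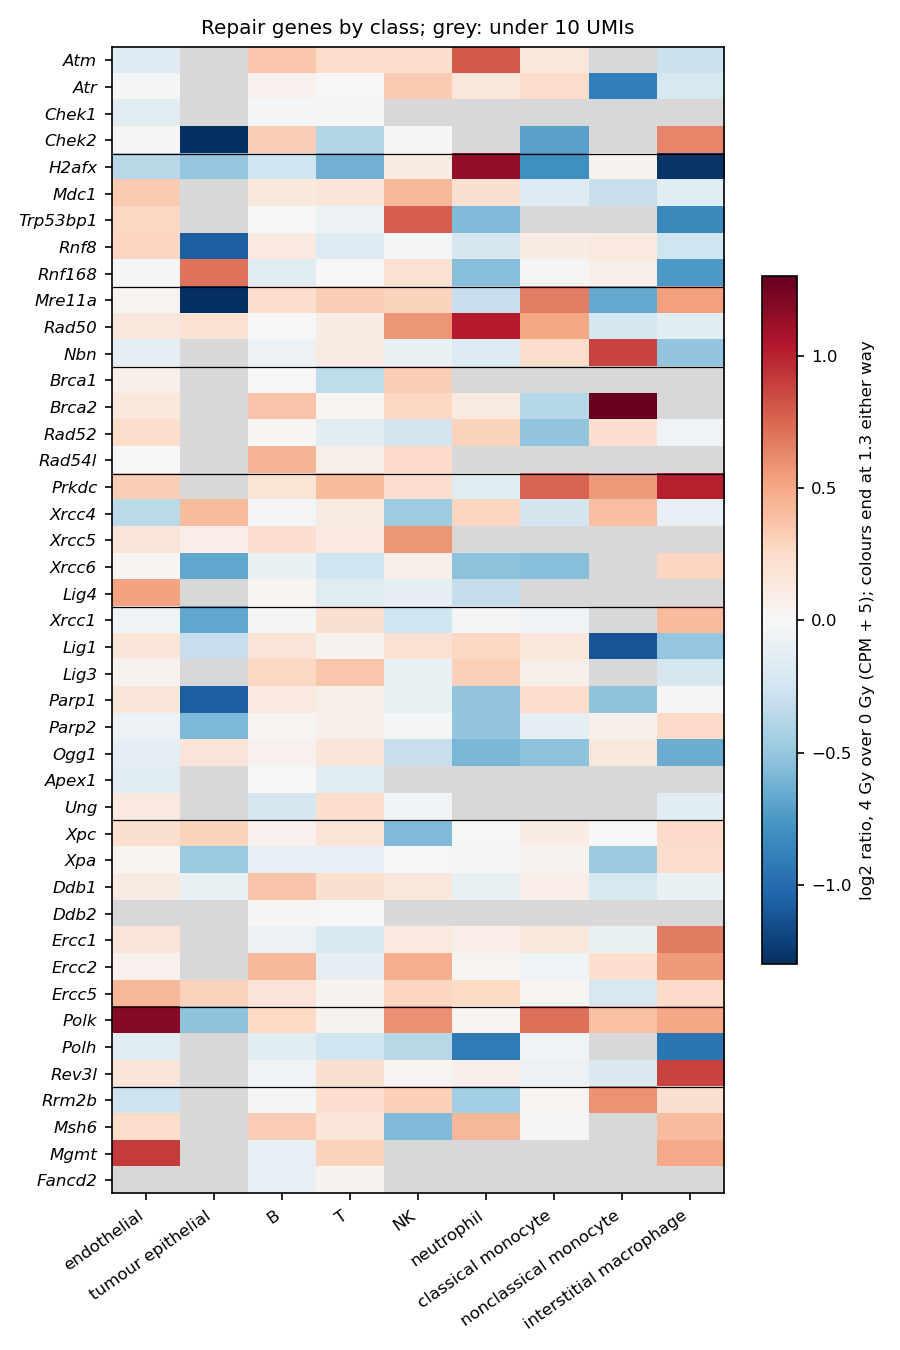
Log2 ratio, 4 Gy over 0 Gy with 5 CPM added, of each of the 43 genes (rows, by pathway) in 9 cell classes (columns), red for higher and blue for lower at 4 Gy, with colours ending at 1.3 either way and grey for under 10 UMIs. Polk and Mgmt are red in the endothelial column, whereas the strong colours of the tumour-like, monocyte-like and macrophage-like columns rest on few UMIs.

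Myeloid classes gave fewer UMIs per gene, and the counts past the limit lay near the background, apart from the lower genes of interstitial-macrophage-like cells. In neutrophil-like cells 3 of 33 measured genes were higher and 2 lower, where 6.91% of all measured genes were higher and 5.56% lower. H2afx stood at 10.2 CPM (10 UMIs) and 28.5 CPM (73 UMIs), ratio 2.80 [1.44 to 6.09], Rad50 at 6.11 and 17.6 CPM (2.88 [1.22 to 8.26]), and Atm had 1 and 14 UMIs (5.37 [0.817 to 227]). The lower genes were Polh (8 and 5 UMIs, 0.240 [0.0617 to 0.832]) and Ogg1 (6 and 6 UMIs, 0.384 [0.103 to 1.44]). Polk stood at 21.4 and 21.9 CPM (1.02 [0.610 to 1.78]). Of 56 further repair genes measured 4 were higher, led by Usp1 (13.2 and 27.0 CPM, 2.04 [1.12 to 4.02]), Rnf169 (24.4 and 43.8 CPM, 1.79 [1.15 to 2.91]) and the end-processing gene Aptx (6 and 31 UMIs). The 2 lower ones were the helicase Blm (6 and 4 UMIs) and the excision factor Gtf2h4 (9 and 11 UMIs).

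Classical-monocyte-like cells had 3 of 32 measured genes higher and 2 lower, where 8.50% of all measured genes were higher and 3.59% lower. Polk (5 and 21 UMIs, 2.32 [0.853 to 7.89]), Prkdc (5 and 22 UMIs, 2.43 [0.900 to 8.23]) and Mre11a (6 and 23 UMIs, 2.12 [0.839 to 6.37]) were the higher ones, all with intervals that included 1. H2afx was lower, at 27.0 and 13.4 CPM (0.496 [0.281 to 0.872]), and so was Chek2 (7 and 4 UMIs). With cells thinned to 1000 UMIs (185 and 354 cells) the H2afx ratio was 0.732, short of the limit. Among further repair genes, Rnf169 (1.63 [0.982 to 2.82]) and the polymerase Rev1 (3 and 13 UMIs) were higher, and Msh3 (0.522 [0.253 to 1.07]), Aptx (0.521 [0.246 to 1.10]) and the ATR partner Atrip (0.553 [0.259 to 1.18]) lower.
Nonclassical-monocyte-like cells had 2 of 25 higher and 3 lower, where 7.75% of all measured genes were higher and 11.4% lower. Brca2, with 4 and 19 UMIs (3.96 [1.32 to 16.0]), was the one whose interval excluded 1, where 4.77% of all measured genes had an interval above 1 and 6.59% one below it. Nbn stood at 16.5 and 34.5 CPM (2.08 [0.967 to 4.86]), and Atr (15 and 8 UMIs), Mre11a (11 and 7) and Lig1 (9 and 3) were lower. Of the further genes Polb, the gap-filling polymerase of base excision, stood at 76.1 and 120.0 CPM (1.58 [1.09 to 2.31]), and Smug1 had 5 and 12 UMIs. Tipin (11 and 5 UMIs), Rad9a (14 and 7) and Uvssa (25 and 16) were the lowest.

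Interstitial-macrophage-like cells had 4 of 34 measured genes higher and 5 lower, where 9.12% of all measured genes were higher and 7.29% lower. H2afx stood at 58.8 CPM (43 UMIs) and 21.4 CPM (33 UMIs), ratio 0.364 [0.224 to 0.587], and was the one gene whose interval excluded 1, where 7.09% of all measured genes had an interval above 1 and 6.12% one below it. As a mean over cells, which gives deep cells no more weight, the ratio was 0.713, and with 70 and 153 thinned cells 0.915. With it the chromatin group summed to 129 and 68.2 CPM (0.530 [0.398 to 0.708]), Trp53bp1 having 8 and 6 UMIs and Rnf168 12 and 12. Ogg1 (8 and 8 UMIs) and Polh (8 and 5) were also lower. The higher genes were Prkdc (1 and 12 UMIs), Rev3l (3 and 18), Chek2 (3 and 14) and Ercc1 (9 and 35). Mgmt stood at 8.21 and 13.6 CPM (1.66 [0.648 to 5.03]). Rnf169 (9 and 40 UMIs, 2.11 [1.01 to 4.94]) was higher among the further genes. Paxip1 (3.48 [1.05 to 18.2]) and Rad1 (2 and 15 UMIs) were among the highest of these, and Rpa2 (0.305 [0.117 to 0.757]) and Ercc3 (0.475 [0.228 to 0.989]) among the lowest.

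Across the 9 classes (endothelial-like cells taken as a whole), 21 of the 43 genes were past the limit in none, and 15 were measured in all. No such count across classes over all genes stands beside these, so they cannot be read as particular to the repair genes. Polk was higher in 3 classes and lower in 0, though in classical-monocyte-like cells its interval included 1. No other of the 43 genes was higher in as many. The level of Polk ran from 4.66 to 74.8 CPM. H2afx was higher in 1 class and lower in 3, with 5 intervals below 1 and 1 above it, and ran from 10.2 to 106 CPM. Chek1, Brca1, Rad54l, Lig4, Apex1, Ddb2 and Fancd2 stayed under 10 CPM in every class at both doses. Over the whole sorts, without gates, all 43 genes were measured. In CD45-negative cells 2 were higher, again Polk and Mgmt, and 0 lower, where 1.96% of all measured genes were higher and 0.965% lower. In CD45-positive cells 0 were higher and 0 lower, where 1.19% were higher and 0.256% lower, and the sum stood at 726 and 745 CPM (1.03 [1.01 to 1.05]). The summed level of the 43 genes lay between 439 and 871 CPM, lowest in neutrophil-like and classical-monocyte-like cells, and its dose ratio between 0.878 in tumour-like and 1.13 in endothelial-like cells.

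**Figure D5:**
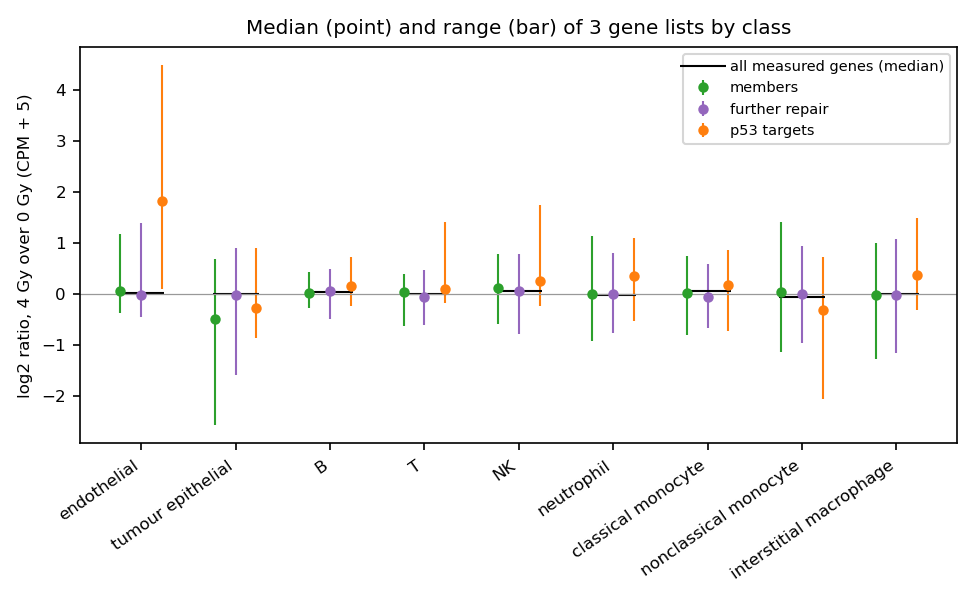
Median (point) and range (bar) of the log2 ratio, 4 Gy over 0 Gy with 5 CPM added, over measured genes of the 43 repair genes (green), the further repair genes (purple) and the p53 targets (orange) in 9 cell classes, with the median over all measured genes as a black line. The repair medians lie within 0.12 of 0 except in tumour-like cells (-0.48), while the p53 targets of endothelial-like cells have a median of 1.83.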

How the data were processed

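Each library's table was deposited by the authors as log2 values, cells by genes. Whole UMI counts were recovered from them: 2 to the power of the value, less 1, sums to 1000000 per cell, and 99.9997% to 99.9998% of non-zero values were whole multiples of the cell's step within a tolerance of 0.02. Per the submitters' processing notes, the tools were STAR, Partek and Seurat on mm10, with no role or version stated. The plan allowed for deposited counts, and the recovered counts took that place.

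Groups came from the labels, which give each library its dose and sort. Python 3.11.15 with numpy 2.4.6, scipy 1.17.1 and pandas 2.3.3 was used. The gate on markers left 2.69% and 2.34% of CD45-negative and 9.51% and 10.9% of CD45-positive barcodes unassigned (0 Gy, 4 Gy). The gate's scoring rule was set after the values were seen. No doublet caller was run, and a barcode with markers of several lineages stayed unassigned where no list led. Classes needed 50 cells at both doses, apart from the tumour-like one. Ratio intervals are exact conditional binomial, levels exact Poisson and shares Clopper-Pearson. The scripts were tested on simulated data.

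The 43 genes and all lists were chosen with earlier results of these data known. Named were every gene past 1.5-fold in a class, the highest gene of each pathway in endothelial-like cells, the 3 highest and 3 lowest further repair genes per class, and Cdkn1a, Mdm2 and Bax. Some further repair genes that this rule picks are not reported here. Others named, such as those whose interval excluded 1, were picked after their values were seen. Gene positions are from GENCODE on GRCm38. Thinning left out 570 and 250 CD45-negative and 213 and 434 CD45-positive cells under 1000 UMIs (0 Gy, 4 Gy). Alternatives varied scaling, cell weights, depth, gate, cycling and deep cells, the added CPM and the count minimum.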

Additional observations from a re-analysis of the deposited data

Results flagged for a closer look

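H2afx, the gene for the histone variant H2AX, differed in opposite directions between leukocyte classes, with counting intervals clear of 1 on both sides. It was higher at 4 Gy in neutrophil-like cells (ratio 2.80) and lower in T-like (0.624), classical-monocyte-like (0.496) and interstitial-macrophage-like cells (0.364). The difference between classes was not tested, since there was 1 library per dose. Beside it stood the depth of the cells: with cells thinned to 1000 UMIs, shallower ones left out, the ratio was 8.74 in neutrophil-like, 0.565 in T-like, 0.732 in classical-monocyte-like and 0.915 in interstitial-macrophage-like cells. The neutrophil-like level at 0 Gy rested on 10 UMIs. Without cycling cells the ratios were 2.28 [1.16 to 4.99], 0.682 [0.561 to 0.829], 0.482 [0.271 to 0.853] and 0.499 [0.251 to 1.0], in the same order. The part of depth and of cycling cells in these ratios was otherwise not tested.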

How the results depend on the processing

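With 1 library per dose and sort no library could be left out, and no paired analysis was possible because the groups share only the number of their single library. Of the summed levels, medians and counts under the other settings, 184 kept their value within the limits set and 56 moved, mostly counts in classes with few UMIs. Using every barcode without a gate was run for endothelial-like and B-like cells only. In endothelial-like cells the ratios of Polk (2.41 to 2.62) and Mgmt (2.06 to 2.64) kept their direction throughout. The cause of the differences listed here was not tested.

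With median-of-ratios scaling, which shifted log2 ratios by at most 0.060, the summed ratio was 1.09 in endothelial-like and 1.03 in B-like cells, and without a gate 1.03 in B-like cells. As means over cells, the summed ratio was 1.10 in neutrophil-like cells, the median -0.73 in tumour-like cells, and the counts past 1.5-fold were 13 (tumour-like), 0 (T-like), 5 (NK-like), 9 (neutrophil-like and both monocyte-like classes) and 14 (interstitial-macrophage-like), where Rnf168 reversed to 1.27. With cells thinned to 1000 UMIs, the summed ratio was 0.715 in nonclassical-monocyte-like cells and the medians were 0.16 (B-like), 0.17 (classical-monocyte-like) and -0.69 (interstitial-macrophage-like). The thinned counts were 1 (tumour-like), 2 (B-like), 3 (T-like), 6 (NK-like), 3 (neutrophil-like), 3 (classical-monocyte-like) and 2 (interstitial-macrophage-like). Rnf168 in tumour-like cells reversed to 0 both when thinned and without cycling cells. Without cycling cells the tumour-like median was -0.97, and the counts were 4 (tumour-like), 0 (T-like), 4 (NK-like) and 8 (nonclassical-monocyte-like). Without the 5% deepest barcodes, the tumour-like summed ratio was 0.480 and the median -2.58, and the counts were 1 (tumour-like), 0 (T-like), 5 (NK-like), 8 (neutrophil-like) and 8 (nonclassical-monocyte-like). With 1 CPM added in place of 5, the counts were 2 (B-like), 3 (T-like), 9 (NK-like), 11 (neutrophil-like), 9 (classical-monocyte-like) and 16 (interstitial-macrophage-like). With 20 CPM added they were 1 (endothelial-like, Polk), 4 (tumour-like), 0 (T-like), 0 (NK-like), 1 (neutrophil-like), 0 (classical-monocyte-like), 1 (nonclassical-monocyte-like) and 1 (interstitial-macrophage-like). At a minimum of 50 UMIs they were 0 (tumour-like), 2 (neutrophil-like), 1 (classical-monocyte-like), 0 (nonclassical-monocyte-like) and 1 (interstitial-macrophage-like), and without a minimum 23 (tumour-like) and 9 (nonclassical-monocyte-like). No share of all measured genes under the same setting stands beside these counts. A change in them thus cannot be read as particular to the repair genes. Depth limits the tumour-like and myeloid classes, where most genes had under 50 UMIs.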

Other observations

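Rnf169, which lies outside the 43 genes and encodes a reader of the ubiquitin mark made by RNF168, had ratios above 1 in 8 of 9 classes. Beside the endothelial-like (3.04), neutrophil-like (1.79), interstitial-macrophage-like (2.11) and classical-monocyte-like (1.63) cells already described, it stood at 16.2 and 20.9 CPM in B-like (1.29 [1.04 to 1.61]), 25.4 and 32.7 CPM in NK-like (1.29 [0.853 to 1.97]), 23.2 and 30.3 CPM in nonclassical-monocyte-like (1.31 [0.641 to 2.77]) and 15.2 and 16.7 CPM in T-like cells (1.10 [0.834 to 1.46]). Tumour-like cells had 3 and 1 UMIs. Rnf169 was chosen after its values were seen. In T-like, NK-like and both monocyte-like classes its interval included 1. No such count of classes over all genes stands beside it, so the count cannot be read as particular to Rnf169. Pcna, the replication and repair clamp that is also reported as a p53 target, stood at 60.2 and 57.9 CPM in endothelial-like cells (0.961 [0.860 to 1.07]), 48.9 and 51.2 CPM in B-like (1.05 [0.920 to 1.19]) and 70.1 and 71.0 CPM in T-like cells (1.01 [0.890 to 1.15]), and was likewise chosen after its values were seen.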
